A study of Mus musculus with 3 samples.

Results

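The genes described here are 4 CXC chemokines that draw neutrophils into tissue (Cxcl1, Cxcl2, Cxcl3 and Cxcl5) and their receptor, Cxcr2, which makes 5 of the 36530 features counted in single cells of 3 mouse melanomas. They were chosen by their measured pattern: their level and the share of cells with a UMI in each cluster and tumor, set against the number of cells that the authors named Neutrophils. Their values across clusters and tumors are therefore a description and carry no test. A UMI is a random tag that lets copies of a single captured RNA molecule be counted once, and levels are given as counts per 1000000 UMIs of the same cells (CPM).

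The tumors arose in the skin of C57BL/6 mice that carry engineered alleles, among them a conditional Braf V600E allele and a Cre driven by the tyrosinase promoter, switched on in melanocytes by tamoxifen painted on the flank. All 3 groups share these alleles, so the mutations are meant for the melanocyte lineage and the stroma is the host's own. Mice of this model came with and without a tdTomato reporter, and the labels do not say which was used here. All 5 genes of the tumor cell marker list, tdTomato among them, were counted in the tumor cells of each tumor. One tumor was untreated, 1 had regressed under vemurafenib, an inhibitor of mutant Braf, and 1 had progressed under it. The labels give no age or dose. Each group was 1 tumor with no replicate, so differences between tumors cannot be told apart from differences between animals, no test between groups was possible, and each interval is a 95% interval for counting error only.

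The libraries held 3726 to 4849 cells and 12413268 to 26948940 UMIs, with the regressed library the shallowest at a median of 2658 UMIs per cell against 4496 (untreated) and 4566 (progressed). The regressed tumor also stood apart in ways its label does not give. Xist reached 0.403 CPM in it and 1494 to 1735 CPM in the others, 4 Y-linked genes together reached 220.2 CPM against 0.946 to 1.19 CPM, and the 2 haemoglobin genes of the red blood cell list reached 1368 CPM in its stroma against 0.512 to 31.8 CPM. By Xist and the Y-linked genes, the regressed tumor came from a male and the others from females. Sex and regression therefore cannot be told apart in any comparison with the regressed tumor. No cell name was shared between libraries. No step that removes doublets, droplets with more than 1 cell, is named in the sources used here.

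CXC chemokines with a Glu-Leu-Arg motif ahead of the first cysteines bind Cxcr2 on neutrophils and guide these cells out of blood vessels and through tissue along a gradient. Cxcl1, Cxcl2, Cxcl3 and Cxcl5 are rapidly induced genes. Interleukin-1, TNF and interleukin-17 switch them on through NF-kappaB, and their short-lived mRNAs are removed with the help of the AU-rich element binding protein Zfp36. In melanoma, chemokines of this family are also known as products of the tumor cells themselves.

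The 4 ligand genes lie together on chromosome 5 (GRCm38), in 146641 bases from 90759298 to 90905938, with Ppbp, Pf4 and Cxcl15 among them. Cxcl5 spans 90759298 to 90761625, Cxcl3 90786101 to 90788093, Cxcl1 90891245 to 90893121 and Cxcl2 90903899 to 90905938. Cxcr2 lies on chromosome 1 from 74153994 to 74161246. RefSeq promoters (GRCm38.p6) were matched for 4 of the 5 genes. The 120 bases before the start of the 3 matched ligand genes, all on the plus strand, are shown because the same 2 elements stand in the same order in each, although the cells with most UMIs of these genes differed. Capitals mark a kappaB-like element (GGGANTTTC), the kind of site that NF-kappaB binds, and a TATA-like element (ATAAAAG).
Cxcl1, chr5:90891125-90891244: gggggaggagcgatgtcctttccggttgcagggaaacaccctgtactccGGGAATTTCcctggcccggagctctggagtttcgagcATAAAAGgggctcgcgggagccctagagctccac
Cxcl2, chr5:90903779-90903898: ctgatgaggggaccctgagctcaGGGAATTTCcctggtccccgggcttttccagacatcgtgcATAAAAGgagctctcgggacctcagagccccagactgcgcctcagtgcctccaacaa
Cxcl3, chr5:90785981-90786100: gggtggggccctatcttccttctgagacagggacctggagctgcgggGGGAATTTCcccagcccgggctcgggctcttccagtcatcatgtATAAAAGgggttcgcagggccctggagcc

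The kappaB-like element began 71 bases before the start in Cxcl1, 97 in Cxcl2 and 73 in Cxcl3, and the TATA-like element began 34, 57 and 29 bases before it. Over the 250 bases before the start, read on both strands, 309 of 32851 RefSeq promoters (0.941%) held the first and 1588 (4.83%) the second. The 2 elements did not overlap in any of the 3 genes. The Cxcr2 promoter held the kappaB-like letters on the other strand, 157 to 149 bases before the start, and no TATA-like match. The letters TGANTCA of an AP-1 site were found in none of the 4 promoters and in 6.75% of all promoters. A match is a description of the letters and not of binding.

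The 5 genes divided the tumors' cells between them: Cxcl1 and Cxcl5 were counted mainly in Stroma clusters, Cxcl2 mainly in neutrophils, Cxcl3 in neutrophils and the Monocytes1 cluster, and Cxcr2 in neutrophils. Stroma held 90.1% of Cxcl1 UMIs untreated, 87.5% regressed and 91.3% progressed. Neutrophils held 78.2% and 73.9% of Cxcl2 UMIs in the untreated and regressed tumors and 2.69% in the progressed one, where only 4 neutrophils were sequenced.

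**Figure D1:**
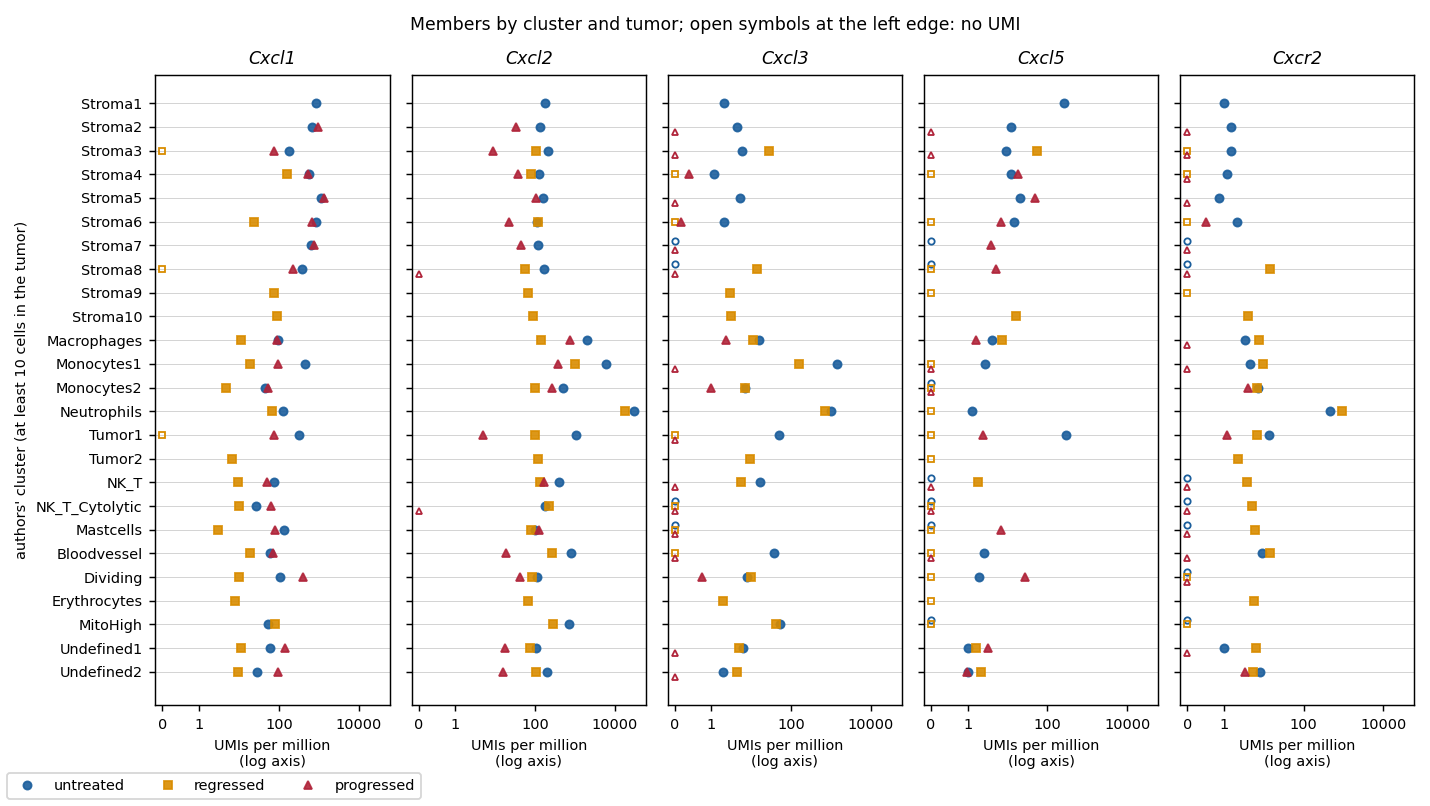
Level of each gene in CPM (log axis) in each of the authors' clusters with at least 10 cells in that tumor; color and shape give the tumor, and open symbols at the left edge mark clusters with no UMI. Cxcl1 was highest in Stroma clusters (1348 CPM in progressed Stroma5), while Cxcl2 and Cxcr2 were highest in Neutrophils (up to 29815 and 904 CPM).

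**Figure D2:**
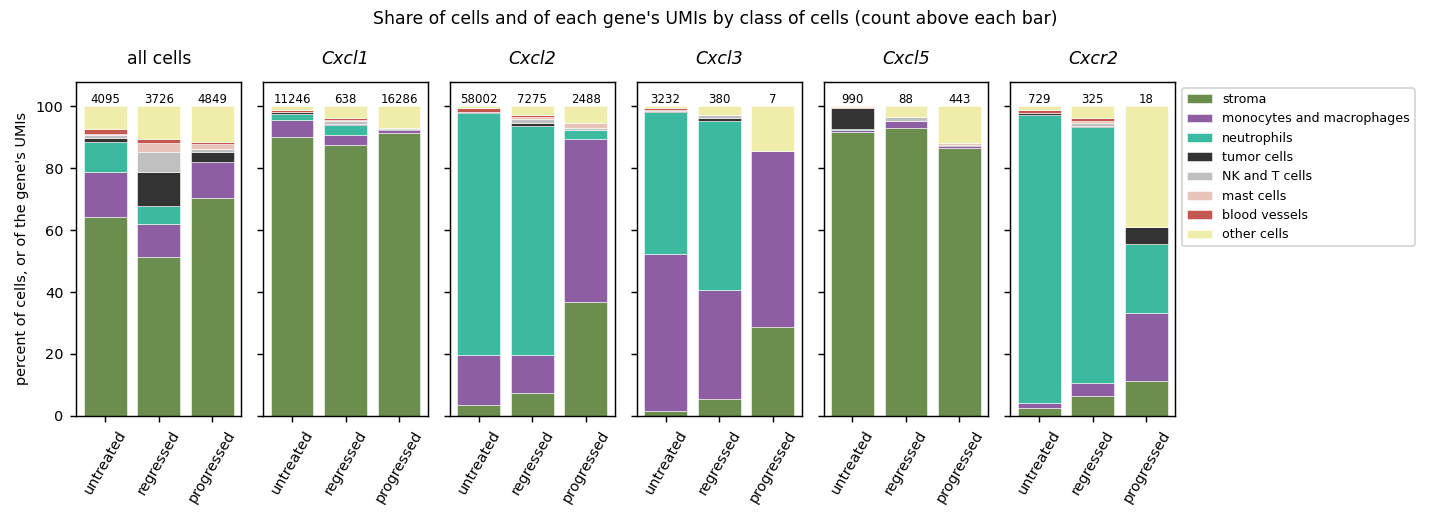
Percent of cells (left panel) and of each gene's UMIs (other panels) in each class of cells, with the number of cells or UMIs above each bar. Neutrophils were 9.55% of untreated cells and held 78.2% of Cxcl2 and 93.3% of Cxcr2 UMIs there, and the progressed bars of Cxcl3 and Cxcr2 rest on 7 and 18 UMIs.

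Cxcl1, a ligand made by fibroblasts and many other cells under inflammatory signals, had the most UMIs of the 4 in untreated and progressed stroma. In regressed stroma its 558 UMIs stood beside 544 of Cxcl2, too close to rank. Its level in all stroma cells was 719 CPM (interval 706 to 734) untreated, 86.9 CPM (79.8 to 94.4) regressed and 845 CPM (832 to 859) progressed. The regressed stroma thus stood far below the others, 8.28-fold below the untreated (log2 ratio -3.05, interval -3.18 to -2.93), and the progressed stroma stood 9.73-fold above the regressed (log2 ratio 3.28, interval 3.16 to 3.41). Progressed and untreated stroma differed by a log2 ratio of 0.23 (interval 0.20 to 0.27). Relative to the median of all genes in stroma, which was 0.14, -0.20 and -0.06 for these pairs, the 3 ratios were -3.19, 3.48 and 0.29. The share of stroma cells with at least 1 Cxcl1 UMI was 52.9%, 12.2% and 53.0%, and 31.5%, 5.02% and 31.1% once every cell was thinned to 1000 UMIs, which left out 29, 185 and 22 cells. Of the red blood cells of the regressed tumor, which should lack the gene, 6.67% had a UMI before thinning (4 of 60 cells, median 8465 UMIs per cell) and 0 after it, and of its NK_T cells 0.595% had one after thinning.

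Most stroma cells held little Cxcl1 and a minority held much. In the untreated stroma the median cell had 1 UMI, 348 of 2628 cells (13.2%) had 10 or more, and a single cell held at most 106. In the progressed stroma the median was again 1, and 454 of 3422 cells (13.3%) had 10 or more. In the regressed stroma 7 of 1918 cells (0.365%) had 10 or more and the highest had 17.

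The stroma of the regressed tumor was composed of other clusters than that of the others. Stroma9 and Stroma10 made up 96.3% of its stroma cells against 0.152% (untreated) and 0.234% (progressed), so these clusters and this library cannot be told apart. Only Stroma3, Stroma4, Stroma6 and Stroma8 held at least 10 cells in all 3 tumors, with 12, 20, 13 and 18 regressed cells. Cxcl1 in Stroma4 was 581 CPM untreated, 162 CPM regressed (4 UMIs, all in 1 cell, interval 44.0 to 414) and 534 CPM progressed, and in Stroma6 863, 24.1 (1 UMI) and 676 CPM. In Stroma3 and Stroma8 the regressed cells had 0 Cxcl1 UMIs. With the 0 set to a floor of 3 UMIs they were 2.19-fold and 9.22-fold lower than the untreated ones. The intervals of these log2 ratios ended at -0.81 and -2.85. The upper bound of the regressed interval lay below the untreated value in all 4 clusters. In Stroma3 the floor of 3 UMIs stands for 81.2 CPM in the regressed cells, so their 0 could not be ranked against the progressed 74.3 CPM.

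The order of the Stroma clusters was led by Stroma5, with 1111 CPM in the untreated and 1348 CPM in the progressed tumor, and its lower value lay above the next cluster in the order of mean levels. It was followed by Stroma1 (869 CPM, untreated), Stroma2 (676 and 949 CPM, untreated and progressed) and Stroma7 (656 and 766 CPM), whose levels overlap with their neighbours. Stroma9 and Stroma10, at 77.4 and 90.6 CPM in the regressed tumor, stood with the neutrophils (67.2 to 127 CPM). Between the progressed and untreated tumors the Stroma clusters pointed both ways: of 7 with at least 10 cells in each, 2 were higher in the progressed tumor with an interval above 0 (Stroma2 by a log2 ratio of 0.49 and Stroma5 by 0.28), 4 were lower (Stroma3 by -1.26, Stroma4 by -0.12, Stroma6 by -0.35 and Stroma8 by -0.74) and 1 interval held 0. Stroma5 made up 6.28% of untreated and 22.0% of progressed stroma cells.

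**Figure D3:**
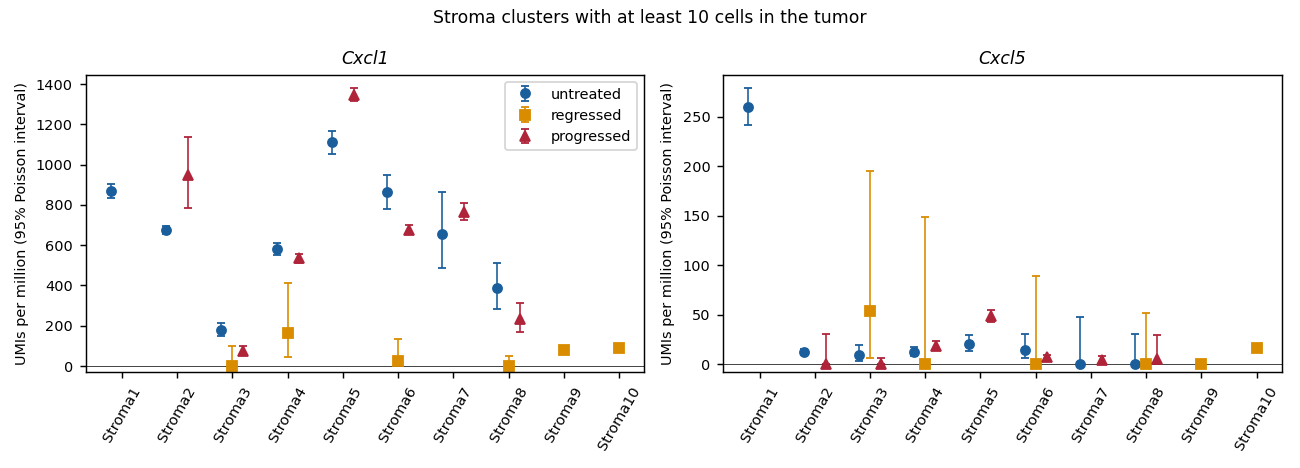
Cxcl1 (left) and Cxcl5 (right) in CPM in each Stroma cluster with at least 10 cells in the tumor, with exact Poisson 95% intervals; color and shape give the tumor. Regressed values of Cxcl1 lay between 0 and 162 CPM in every Stroma cluster shown, and Cxcl5 was highest in untreated Stroma1 at 259.5 CPM.

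Immediate early and heat shock genes moved with Cxcl1 in stroma. The 9 genes of this list (Fos, Fosb, Jun, Junb, Egr1, Ier2, Atf3, Hspa1a and Hspa1b), which growth factors, stress and tissue digestion induce, were all detected in each stroma and summed to 14651 CPM untreated, 7622 CPM regressed and 14343 CPM progressed. Their part in the Cxcl1 result was not tested. The 6 fibroblast markers, by contrast, were all detected and stood at 34779 to 36776 CPM in the 3 stromas.

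Cxcl1 was lower outside the stroma. Monocytes and macrophages, the clusters Macrophages, Monocytes1 and Monocytes2 combined, held 233 CPM untreated, 13.7 CPM regressed and 76.8 CPM progressed. Tumor cells held 273, 5.03 and 75.0 CPM, on 72, 3 and 63 UMIs. Of the regressed tumor cells, 349 of 410 were in Tumor2, while 44 of 48 untreated and 156 of 160 progressed ones were in Tumor1. The regressed tumor cells were also shallow, at a median of 832 UMIs against 4078 (untreated) and 4656 (progressed). In both classes the untreated value was the highest, and the progressed one lay below it by log2 ratios of -1.60 (interval -1.84 to -1.37) and -1.86 (interval -2.37 to -1.35), opposite in sign to the stroma. Of the 3 clusters, Monocytes1 carried this (log2 ratio -2.29, with 225 untreated and 53 progressed cells), while the intervals held 0 in Macrophages (-0.09, interval -0.47 to 0.29) and in Monocytes2 (0.29, interval -0.49 to 1.12). The share of cells with Cxcl1 was 17.5% untreated and 18.1% progressed in monocytes and macrophages, and 16.7% and 18.8% in tumor cells. In untreated tumor cells the highest 3 cells had 27, 15 and 12 of the 72 UMIs. Dividing cells, a cluster outside these classes, held 106, 9.72 and 411 CPM. In 1 untreated monocyte or macrophage 122 UMIs were counted, 18.9% of that class's Cxcl1.

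Cxcl5, a ligand best known from epithelium and fibroblasts, was rare and concentrated. It had 990 UMIs untreated, 88 regressed and 443 progressed. The Stroma1 cluster of the untreated tumor alone held 766 of them (259.5 CPM, interval 241 to 279), in 21.0% of its 472 cells, while the other untreated Stroma clusters with at least 10 cells lay between 0 and 20.5 CPM. Stroma as a whole held 64.4 CPM untreated, 12.8 CPM regressed and 21.8 CPM progressed, and the progressed UMIs lay mainly in Stroma5 (269 of 384, 48.6 CPM). Within Stroma5 the progressed level was above the untreated 20.5 CPM (log2 ratio 1.25, interval 0.67 to 1.87), opposite to the stroma as a whole. Of the 7 Stroma clusters compared between these 2 tumors, this was the only interval off 0, while 3 held 0 and 3 gave no ratio. Stroma1 had 1 cell in the regressed and none in the progressed tumor, so its Cxcl5 could not be compared between tumors.

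In untreated tumor cells 68 Cxcl5 UMIs (258 CPM) were counted in 5 of 48 cells, and a single Tumor1 cell held 39 of them. That cell also held 25 UMIs of the tumor cell markers, 20 of the fibroblast markers and 11 of the neutrophil markers. The regressed tumor cells had 0 Cxcl5 UMIs in 596002, where a floor of 3 UMIs stands for 5.03 CPM, and the progressed ones had 2. Whether the untreated UMIs came from tumor cells alone was not tested.

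Cxcl2, an early ligand that leukocytes and other cells make on activation, had the most UMIs of the 5 genes over the 3 tumors, with 58002 UMIs untreated, 7275 regressed and 2488 progressed. Neutrophils held 29815 CPM (interval 29541 to 30090) in the untreated and 18076 CPM (17596 to 18566) in the regressed tumor, and the 4 progressed neutrophils 9493 CPM on 67 UMIs. Those 4 cells had 38, 0, 15 and 14 Cxcl2 UMIs. In the untreated tumor 98.5% of neutrophils had a Cxcl2 UMI, with a median of 79 UMIs per cell, and in the regressed one 80.1%, with a median of 11. The regressed neutrophils were shallower, at a median of 1252 UMIs per cell against 3257, and after thinning the shares were 97.1% and 78.2%, with 74 of the 216 regressed cells left out.

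The level of Cxcl2 in regressed neutrophils was lower than in untreated ones by a log2 ratio of -0.72 (interval -0.76 to -0.68). Over all genes that reached 20 UMIs over both groups the median log2 ratio was 0.58, so relative to that median Cxcl2 was lower by 1.30, a log2 ratio of -1.30. S100a8 and S100a9, the calprotectin genes that fill neutrophil libraries, moved with this: they summed to 215512 CPM in untreated and 93024 CPM in regressed neutrophils. In the other classes the median ratio of all genes lay between -0.22 and 0.15.

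Monocytes and macrophages came next. Monocytes1 held 5864 CPM Cxcl2 untreated, 976 CPM regressed and 378 CPM progressed, and Macrophages held 2039, 145 and 748 CPM. The 2 clusters thus differed in which treated tumor was lower, regressed for Macrophages and progressed for Monocytes1. For the class as a whole the level was 3360, 580 and 518 CPM, which is 5.80-fold lower in the regressed and 6.48-fold lower in the progressed than in the untreated tumor. Neutrophil markers were present in the class as well: all 10 were detected in each tumor, summing to 2495, 1162 and 156 CPM.

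Cxcl2 outside myeloid cells was set beside neutrophil RNA. Against S100a8 and S100a9, Cxcl2 was 12.2% of the UMIs of the 3 genes in untreated neutrophils (7.23 S100 UMIs per Cxcl2 UMI) and 18.6% in untreated stroma (4.39 per Cxcl2 UMI). In the regressed tumor it was 16.3% in neutrophils, 16.5% in stroma, 17.7% in Erythrocytes, 20.8% in NK_T cells, 24.2% in Bloodvessel and 33.8% in NK_T_Cytolytic cells. In the untreated tumor it was 24.3% in Bloodvessel, 32.0% in NK_T, 45.0% in Tumor1, 64.8% in Monocytes1 and 69.3% in Macrophages, so these groups did not share a single ratio. Stroma levels of 148 CPM (untreated) and 84.7 CPM (regressed) stood below the 397 and 130 CPM of NK_T cells. Other clusters lay on both sides of stroma. Among those below it were Dividing (110 and 82.6 CPM), Undefined1 (104 and 75.8 CPM) and Erythrocytes (66.4 CPM, regressed). Among those above it were Bloodvessel (791 and 266 CPM), NK_T_Cytolytic (182 and 226 CPM) and Undefined2 (195 and 103 CPM). The shares of stroma cells with a Cxcl2 UMI, 46.3% and 23.1% at median depths of 4654 and 3152 UMIs, were also below those of NK_T cells, 64.0% and 27.2% at 4087 and 2653 UMIs in 25 and 180 cells. The part of free neutrophil RNA in the stroma counts was not tested.

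The progressed tumor differed in this. Its stroma held 919 Cxcl2 UMIs (52.2 CPM) beside 80 of S100a8 and S100a9 (4.55 CPM), so Cxcl2 was 92.0% of the UMIs of the 3 genes. These UMIs lay in 257 of 3422 stroma cells (7.51%), 23 of which had 10 or more, and 569 of them were in Stroma5 (103 CPM). Of the progressed NK_T cells, 1 of 17 had Cxcl2, with 16 UMIs. Stroma cells with a Cxcl2 UMI had a Cxcl1 UMI in 77.4% of cases, and those without in 51.0%, at median depths of 6056 and 4236 UMIs.

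Untreated tumor cells held 247 Cxcl2 UMIs (936 CPM), and 1 Tumor1 cell held 194 of them. This cell had 183 UMIs of the neutrophil markers and 56 of the tumor cell markers among 17224 UMIs. Regressed tumor cells held 116 CPM and progressed ones 4.76 CPM (4 UMIs). The untreated tumor cell with the next most Cxcl2 had 17 UMIs.

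Cxcl3, a close relative of Cxcl2, was carried by fewer cells. Its UMIs numbered 3232 untreated, 380 regressed and 7 progressed. Neutrophils held 979 CPM (interval 930 to 1030) untreated and 699 CPM regressed, and the 4 progressed neutrophils had 0 UMIs, which at 7058 UMIs in all allows up to 425 CPM. Monocytes1 held 1442 CPM untreated, 154 CPM regressed and 0 progressed. Neutrophils and Monocytes1 therefore overlapped in level, and the next cluster in the order of mean levels, MitoHigh, was at 41.0 and 53.5 CPM on 1 UMI each.

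Within Monocytes1, Cxcl3 was confined to a minority. In the untreated tumor 61 of 225 cells held all 1620 UMIs, and the highest cell of the monocytes and macrophages held 231. The Monocytes1 cells with Cxcl3 held 16713 CPM Cxcl2 and 1485 CPM Cxcl1, against 2097 and 92.3 CPM in the 164 cells without it. They also held more neutrophil marker UMIs (7102 against 3404 CPM) and less of the monocyte and macrophage markers (8238 against 11689 CPM), while Csf3r, the receptor for the neutrophil growth factor G-CSF, had 3 UMIs in these 61 cells and 38 in the 164 without Cxcl3, and Ccr2, a receptor of monocytes, had 106 and 988. The part of neutrophil RNA in these cells was not tested. The same contrast in the regressed tumor, on 18 cells, was 6772 against 513 CPM for Cxcl2.

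Cxcl3 and Cxcl2 were lower together in the regressed tumor but separated in the progressed one. In monocytes and macrophages the regressed tumor was 5.80-fold lower for Cxcl2 and 6.83-fold lower for Cxcl3. The progressed tumor had 1310 Cxcl2 UMIs in this class and 4 of Cxcl3. Against the regressed tumor, with 133 Cxcl3 UMIs, the log2 ratio was -5.78 (interval -7.68 to -4.39), whereas for Cxcl2 it was -0.16 (interval -0.29 to -0.04). One cell held 66 of those 133 UMIs. By cluster, the Cxcl2 log2 ratio was 2.37 in Macrophages, 1.43 in Monocytes2 and -1.37 in Monocytes1. Monocytes1 held 127 of the 133 regressed Cxcl3 UMIs, and its 53 progressed cells held 0. The separation in the class therefore mixes clusters that held different genes, and within Monocytes1 both genes were lower in the progressed tumor.

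Cxcr2, the receptor by which neutrophils sense these ligands, was counted 729 times untreated, 325 times regressed and 18 times progressed. Neutrophils held 93.3% and 82.8% of the first 2 counts. Their level was 447 CPM in the untreated and 904 CPM in the regressed tumor, and 567 CPM on 4 UMIs in the progressed one. The regressed value was higher by a log2 ratio of 1.02 (interval 0.81 to 1.22), by 0.44 relative to the median of all genes, and by 0.19 with edgeR's TMM factors in place of total UMIs. The share of neutrophils with a Cxcr2 UMI was 70.6% untreated and 59.7% regressed as counted, and 40.5% and 60.6% after thinning to 1000 UMIs. The order thus turned with depth, and only the thinned shares and the level pointed the same way. The 4 progressed neutrophils had 2, 0, 1 and 1 UMIs.

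No other cluster with at least 10 cells exceeded 14.0 CPM Cxcr2, and stroma held 1.28, 3.27 and 0.114 CPM, on 18, 21 and 2 UMIs. Neutrophils with and without a Cxcr2 UMI had Cxcl2 in nearly equal shares, 98.9% and 97.4% in the untreated tumor. Ligand and receptor were hence counted in the same cells.

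The number of neutrophils was set against the ligands because the genes were chosen that way. Neutrophils were 391 of 4095 cells (9.55%, interval 8.67 to 10.5) untreated, 216 of 3726 (5.80%, 5.07 to 6.60) regressed and 4 of 4849 (0.0825%, 0.0225 to 0.211) progressed. The name held up against marker levels: the 10 neutrophil markers summed to 242889, 107608 and 135874 CPM in these cells, against 901, 646 and 99.4 CPM in stroma. All 10 were detected in these cells, and in stroma as well, in each tumor. Of the 959 progressed marker UMIs, 1 of the 4 cells held 649, with 0 Cxcl2 UMIs, and the others held 123, 33 and 154. Fewer cells captured from a digested tumor and fewer cells in the tumor cannot be told apart. By flow cytometry of progressed tumors of this model, the paper reports significantly more cells with the surface marker CD11b and high Gr1, which it calls myelosuppressive. It plots them as a percent of CD45-positive cells (leukocytes), whereas the share here is of all sequenced cells. The reported change goes the other way. Whether those cells are the ones named Neutrophils here was not tested. The low share therefore describes this library and not progressed tumors in general.

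The sum of the 4 ligands did not follow the neutrophils in stroma. It was 935 CPM untreated, 188 CPM regressed and 919 CPM progressed. The regressed tumor, with more neutrophils than the progressed one, had the lower stromal sum by 4.90-fold between these 2 tumors, while the progressed and untreated sums differed by a log2 ratio of -0.02 (interval -0.06 to 0.01). With Cxcl1 left out, the sum in progressed stroma was below the regressed one (log2 ratio -0.44) and below the untreated one (log2 ratio -1.54). With the 4 Stroma clusters that all 3 tumors shared weighted equally, the log2 ratio of progressed to untreated was -0.73.

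In monocytes and macrophages the sum was 4191, 682 and 598 CPM, with the progressed tumor lowest. The clusters of this class did not share that order for Cxcl2. Its log2 ratio of progressed to regressed was 2.37 in Macrophages, 1.43 in Monocytes2 and -1.37 in Monocytes1. Monocytes1 made up 197 of 397 regressed and 53 of 553 progressed cells of the class. Over all cells the ligand sum was 3309, 675 and 713 CPM, and without the Neutrophils cells 1278, 229 and 711 CPM. The first series counts the neutrophils' own Cxcl2, so part of it is the quantity it is set against. The tumors stood in the order of their neutrophils in monocytes and macrophages taken as a whole class, in tumor cells (1508, 128 and 82.2 CPM), in the neutrophils themselves (30922, 18842 and 9493 CPM), and also in NK and T cells (420, 171 and 146 CPM, with an interval that held 0 between the last 2) and blood vessels (891, 284 and 89.1 CPM). They did not in stroma, mast cells (232, 82.1 and 212 CPM) or other cells (206, 104 and 244 CPM). S100a8 and S100a9 summed to 1239, 450 and 2.38 CPM in tumor cells and 878, 482 and 5.61 CPM in NK and T cells. In blood vessels they summed to 2469, 835 and 6.37 CPM, and in stroma to 648, 428 and 4.55 CPM. In tumor cells, 1 untreated cell with 183 neutrophil marker UMIs held 194 Cxcl2 UMIs. The part of neutrophil RNA in these orders was not tested. Over all cells the log2 ratio of progressed to regressed was 0.08 and changed sign under other settings, to -0.82 with cells thinned and -0.97 with equal weight per cell. With 3 tumors no relation can be tested.

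**Figure D4:**
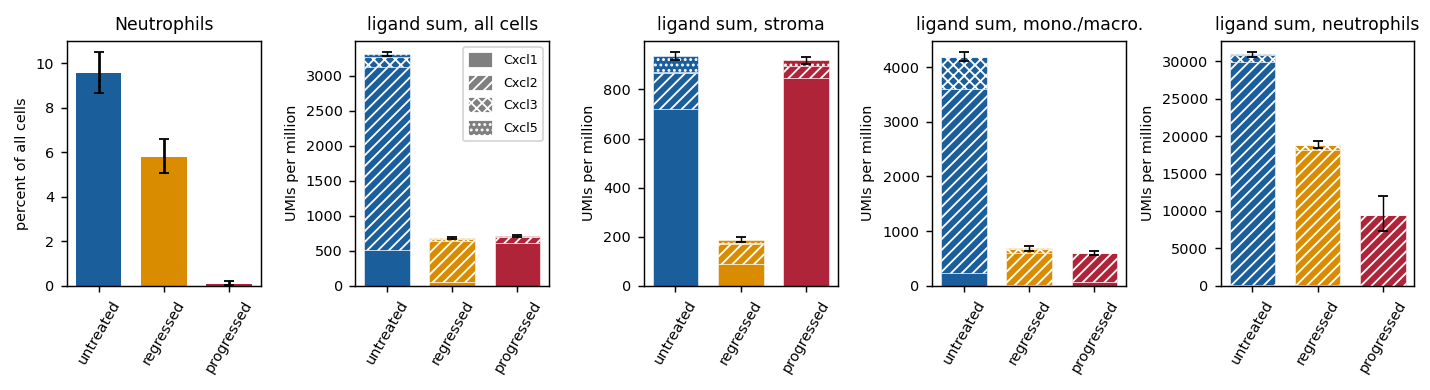
Percent of cells named Neutrophils in each tumor (exact Clopper-Pearson 95% interval) and the summed level of Cxcl1, Cxcl2, Cxcl3 and Cxcl5 (hatching) in CPM, with exact Poisson 95% intervals, in all cells and in 3 classes; each panel has its own axis from 0. The stroma of the progressed tumor held 919 CPM, mostly Cxcl1, beside 0.0825% neutrophils.

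The 26 other genes of the pathway were compared for ratios of 2-fold or more between tumors, among those reaching 20 UMIs over both tumors. In stroma, 21 could be compared between regressed and untreated: 8 were at least 2-fold lower, 3 higher and 10 within 2-fold, with a median log2 ratio of -0.74 against 0.14 over all genes. Over all 14791 genes compared there, 7.09% were lower and 13.7% higher by that fold. The 8 lower genes were Il6, Csf3, Cxcl12, Tnfaip3, Ccl2, Zfp36, Ccl7 and Nfkbiz. Il6, a cytokine of activated fibroblasts, was 159 CPM untreated, 5.76 CPM regressed and 105 CPM progressed. Ccl2, which attracts monocytes, was 320, 80.9 and 947 CPM. Tnfaip3, an inhibitor of NF-kappaB that NF-kappaB itself induces, was 58.9, 13.2 and 38.4 CPM. The 3 higher genes, Tnf, Csf3r and Il1rn, lay at or under 7.32 CPM in stroma and are genes of leukocytes.

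Between progressed and untreated stroma, 6 of 21 pathway genes were at least 2-fold lower and 1 higher (Ccl2, log2 ratio 1.57), against 5.7% lower and 3.57% higher of all genes. Csf3, the gene of G-CSF, was 7.03 CPM in untreated and 0.0568 CPM (1 UMI) in progressed stroma. Cxcl12, the ligand of Cxcr4, was 1397 CPM untreated, 221 CPM regressed and 406 CPM progressed. Between progressed and regressed stroma 7 of 20 were higher and 5 lower, against 4.99% higher and 15.9% lower of all genes. The higher ones included Il6 (log2 ratio 4.18), Tnfaip3 (1.54) and Zfp36 (1.54), and the lower ones were Csf3r, Il1b, Il1rn, Cxcr4 and Tnf, genes of leukocytes.

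Of the 5 members in stroma, 2 were at least 2-fold lower in regressed than in untreated cells (Cxcl1 and Cxcl5) and 1 was higher (Cxcr2, on 21 and 18 UMIs). Between progressed and untreated stroma 4 were lower and 0 higher. Cxcl5 was among these 4, though within Stroma5 it was higher in the progressed tumor. Between progressed and regressed 1 was higher (Cxcl1) and 2 lower (Cxcl3 and Cxcr2, on 2 progressed UMIs each). These ratios entered the choice of the genes, so nothing is read from the counts.

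In monocytes and macrophages, 13 of 21 pathway genes were at least 2-fold lower in regressed than in untreated cells and 0 higher, against 3.92% lower and 11% higher of all 10867 genes compared. Ccl7 was 1175, 169 and 1205 CPM (untreated, regressed, progressed), and Ccl2 941, 204 and 1046 CPM. Zfp36, the mRNA decay factor, was 1490, 571 and 1491 CPM, so the untreated and progressed tumors stood together. Between progressed and untreated cells 7 were lower and 0 higher, against 4.52% and 4.55% of all genes, among them Il1a (49.6 and 6.73 CPM), Il1b (1493 and 418 CPM) and Ptgs2, the inducible cyclooxygenase (95.3 and 9.89 CPM). Between progressed and regressed cells 6 of 18 were higher and 2 lower (Ptgs2 and Il1rn), against 4.37% and 12.1% of all genes. Of the members in this class, 3 were lower in regressed than in untreated cells, 3 lower in the progressed than in the untreated, and 1 was higher (Cxcl1) and 1 lower (Cxcl3) in the progressed than in the regressed.

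In neutrophils, compared between regressed and untreated only, 5 of 21 pathway genes were at least 2-fold lower and 2 higher, against 4.93% and 30.1% of all 5887 genes compared. Cxcr4, the receptor that holds neutrophils in marrow and rises as they age, was 175 CPM regressed and 46.0 CPM untreated, and Ptgs2 968 and 246 CPM. Csf3 was 3.36 CPM on 1 UMI and 57.2 CPM. Cxcr1, the second receptor of this kind, was 13.4 CPM on 4 UMIs and 31.6 CPM. Il1b, at 11303 and 13256 CPM, lay within 2-fold. Of the members, Cxcr2 was higher by at least 2-fold and none was lower.

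In tumor cells 10 pathway genes could be compared between regressed and untreated, with 3 lower (Ccl2, Il1b and Zfp36) and 1 higher (Pf4), against 6.7% and 16% of all genes. Between progressed and untreated 2 of 10 were lower (Il1b and Nfkbiz) and 0 higher, against 5.6% and 9.7%. Between progressed and regressed 2 of 11 were higher (Ccl2 and Lif) and 2 lower (Il1b and Pf4), against 5.54% and 11.6%. Most regressed tumor cells were in Tumor2 and most of the others in Tumor1, so ratios with the regressed tumor also compare clusters. Untreated tumor cells held 1637 CPM of the 10 neutrophil markers, all of them detected, regressed ones 639 and progressed ones 111 CPM with 4 of the 10 at 0. Of the members, Cxcl1, Cxcl2 and Cxcl5 were lower by at least 2-fold in both treated tumors, and between progressed and regressed Cxcl1 was higher and Cxcl2 lower.

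**Figure D5:**
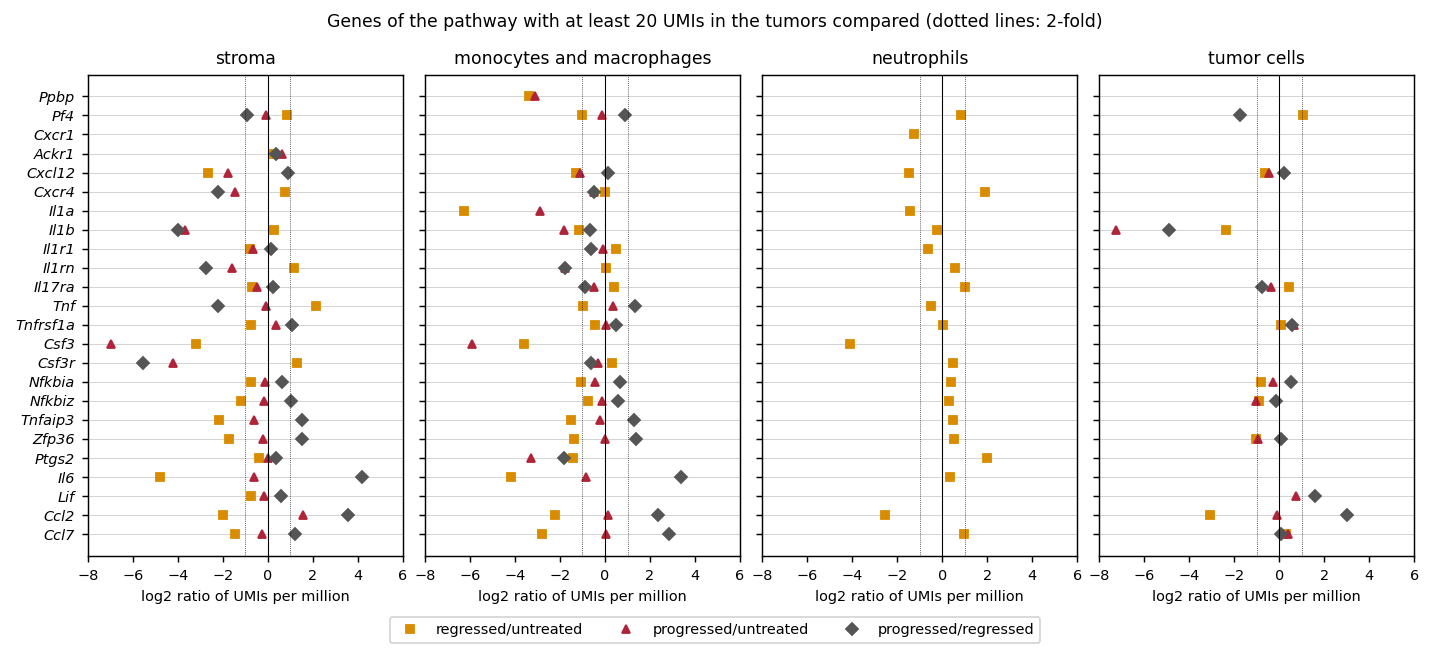
Log2 ratio of CPM between tumors for the pathway genes that reached 20 UMIs over both tumors, in 4 classes of cells; shape and color give the pair of tumors and dotted lines mark 2-fold. In stroma 8 of 21 genes lay past the left line for regressed against untreated, and in monocytes and macrophages 13 of 21.

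Genes whose levels over 53 cluster and tumor groups with at least 20 cells ran most like a member's were ranked by Pearson's r of log2(CPM + 10), among 12964 genes. These r describe groups that share libraries, depth and free RNA, and carry no p. Nearest to Cxcl1 were Cebpd (r = 0.82), Bicc1 (0.81), Socs3 (0.80), Dtx4 (0.79) and Rdh10 (0.78). Nearest to Cxcl2 were Il1b (0.90), Clec4d (0.85), Slpi (0.84), Trem1 (0.82) and Cxcl3 (0.82). Nearest to Cxcl3 were Clec4d (0.87), Mir7678 (0.86), Slc7a11 (0.84), Il1a (0.84) and Wfdc21 (0.83). Nearest to Cxcr2 were Mirt2 (0.95), Fpr1 (0.93), Il1f9 (0.92), Gm38525 (0.92) and Trim30b (0.92). For Cxcl5 the nearest reached only 0.66 (Proca1), followed by a feature with no symbol (0.64), Sorcs2, Kng2 and Slco1c1 (0.63 each). Among the members themselves, Cxcl1 ran with Cxcl5 (0.54) and with none of Cxcl2 (-0.04), Cxcl3 (-0.01) and Cxcr2 (-0.16).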

How the data were processed

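According to the study's methods, tumors were digested with enzymes, single cells were captured in droplets for 3' end counting, reads were aligned to GRCm38 with GSNAP, unique reads in sense orientation over exons were kept, and cells with few UMIs were dropped. Cells were clustered with Seurat 2.2.0 (per the labels' processing notes) and named by the authors. The authors deposited 1 table of UMI counts per tumor, not normalized, with Entrez IDs, and 1 table of cluster names with total counts per cell. Sums of the deposited counts exceeded the deposited totals by 4.42% to 6.09%, from a source not found. Of 36530 features, 31049 were matched to symbols. No other feature held the same counts as a member.

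UMIs were summed by cluster or class and tumor and divided by all UMIs of those cells. Intervals are exact Poisson (levels), Clopper-Pearson (shares) and conditional binomial (ratios), all 95%. A 0 was set to 3 UMIs over the group, and no ratio is given where both counts were at most 3. Clusters were compared with at least 10 cells. Shares were also computed after thinning cells to 1000 UMIs with a fixed seed. Named genes were the members, 26 pathway genes and the 5 nearest genes of each member. The members and lists were chosen with earlier results of these data known. Scripts were tested on simulated counts. TMM factors came from edgeR 4.0.16 in R 4.3.3, and the rest was run in Python 3.11.15 with scipy 1.17.1. Trbc2, a T cell marker, had no matching row and was left out of its list. Alternatives were other scalings, cell filters, weights, cluster sets and thresholds. One item of the model is not reported here.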

Additional observations from a re-analysis of the deposited data

Results flagged for a closer look

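Cxcl1 was higher in progressed than in untreated stroma by a log2 ratio of 0.23, but lower in monocytes and macrophages (-1.60) and in tumor cells (-1.86). It was singled out because the intervals of the classes lay on opposite sides of 0 for the same pair of tumors. The stroma ratio was -0.40 with the 4 shared Stroma clusters weighted equally, and 4 of 7 Stroma clusters were lower in the progressed tumor. Among monocytes and macrophages the interval held 0 in Macrophages (-0.09) and Monocytes2 (0.29). The difference between the classes was not tested, since each tumor was sequenced once.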

How the results depend on the processing

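With 1 tumor per group no replicate could be left out, and no paired analysis was possible because each group holds a single sample. The log2 ratio of the ligand sum in stroma, regressed against untreated, was -2.32 as reported, -2.56 with TMM factors, -2.05 with equal weight per cell, -2.05 with the 4 shared Stroma clusters weighted equally and -1.10 without Cxcl1. Progressed against untreated it was -0.02, and under the alternatives 0.0361 with TMM factors, -0.0630 thinned, -0.0798 with equal weight per cell, 0.0246 without the 5% of cells with most UMIs, -0.73 in the shared clusters and -1.54 without Cxcl1. Progressed against regressed it was 2.29, and 2.60 (TMM), 1.97 (equal weight), 1.32 (shared clusters) and -0.44 (without Cxcl1), the last of opposite sign.

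Over all cells the ligand sum, regressed against untreated, was -2.29, and -2.53 with TMM factors, -2.41 in cells with at least 1000 UMIs, -1.93 thinned, -1.77 with equal weight, -2.22 without the deepest 5%, -2.97 without Cxcl2, the ligand with the most UMIs in that pair, and, in a setting chosen after seeing the data, -2.48 without Neutrophils cells. Progressed against untreated it was -2.21, and -2.76 thinned, -2.74 with equal weight, -2.30 without the deepest 5%, -0.17 without Cxcl2 and -0.85 without Neutrophils cells. Progressed against regressed it was 0.08, and 0.31 (TMM), 0.20 (at least 1000 UMIs) and 1.63 (without Neutrophils cells), but -0.82 (thinned), -0.97 (equal weight), -0.0819 (without the deepest 5%) and -2.52 (without Cxcl1, the ligand with the most UMIs in that pair). Without Cxcl2, also added after seeing the data, it was 2.80, so its direction rests on the setting.

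Of 87 alternative values for 15 single-gene ratios whose interval lay off 0, 83 kept their sign. The others were Cxcl1 in stroma, progressed against untreated (-0.40), Cxcl5, regressed against untreated (0.60), and Cxcl5, progressed against regressed (-0.82), all in the shared clusters, and the last also with equal weight (-0.11). The cause was not tested.

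Of pathway genes past the threshold, a 1.5-fold limit gave 18 in place of 11 and 11 in place of 7 in stroma (regressed and progressed against untreated), 15 in place of 8 in monocytes and macrophages (progressed against regressed), 12 in place of 7 in neutrophils, and 7 in place of 4 and 5 in place of 2 in tumor cells (regressed and progressed against untreated). A minimum of 5 UMIs gave 8 and 4 in the last pair. Cxcr2 in neutrophils stayed higher in the regressed tumor, with log2 ratios from 0.19 (TMM) to 1.11. Depth limits Cxcl3 and Cxcr2 in the progressed tumor, which rest on 7 and 18 UMIs.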

Other observations

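Ccl2 and Cxcl12, which bind receptors other than Cxcr2, were set beside Cxcl1 in stroma. Ccl2 stood in the same order of tumors as Cxcl1, with a wider gap between progressed and untreated. It was 947 CPM progressed, 320 untreated and 80.9 regressed, against 845, 719 and 86.9 CPM for Cxcl1. Cxcl12 differed in order and was highest in the untreated tumor (1397 CPM against 221 regressed and 406 progressed). Pf4, a chemokine gene of the same chromosome 5 group known from platelets and macrophages, was 1873, 917 and 1720 CPM in untreated, regressed and progressed monocytes and macrophages, and Cxcl15, within the same span, had 0 UMIs in all 3 libraries.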
